A study of Mus musculus with 8 samples.

Results

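C/EBPα binding at the apolipoprotein genes of mouse liver was read from chromatin immunoprecipitation and sequencing (ChIP-seq) peak lists in 3 windows of build mm9. The windows are chromosome 9, 45980000 to 46120000, which holds Apoa1, Apoc3, Apoa4 and Apoa5; chromosome 12, 7930000 to 8080000, which holds Apob; and chromosome 7, 20230000 to 20330000, which holds Apoe, Apoc1, Apoc2 and Apoc4. Peaks of all libraries whose 200 bp windows overlapped were joined into sites, and every site in these windows was kept, whatever its signal. This gave 73 of the 113353 sites of the series, 29 in the Apoa1 window, 23 in the Apob window and 21 in the Apoe window, made of 384 peaks. The 8 libraries came from liver of C57B/6 mice aged 8 to 10 weeks that were fed chow and fasted for 4 hours, and all used the same C/EBPα antibody. Trib1 flox/flox mice were given Cre recombinase by adeno-associated virus (AAV) at 1.5e11 gc (Trib1_LSKO, 2 libraries) or the same dose of AAV_Null (Trib1_WT, 2 libraries). Wild-type mice received 1e12 gc of an AAV coding for C/EBPα (AAV_Cebpa, 2 libraries) or of AAV_Null (2 libraries). All mice thus carried an AAV, at a higher dose in the second experiment. The promoter of each vector, and whether a library pooled several animals, were not stated in the labels, so the spread between libraries may be technical.

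The peak lists held 50075 and 53072 peaks in Trib1_LSKO, 53327 and 54691 in Trib1_WT, 59564 and 80394 in AAV_Cebpa, and 46348 and 49052 in AAV_Null. AAV_Cebpa replicate 2 stands apart by its length. Relative depth, taken from the step between deposited signal values, ran from 1.0 in AAV_Null replicate 1 to 2.27 in AAV_Cebpa replicate 2. It was 1.845 and 2.27 in AAV_Cebpa against 1.0 and 1.17 in AAV_Null, without overlap. In the Trib1 experiment it overlapped, at 1.18 and 1.28 in Trib1_LSKO and 1.14 and 1.93 in Trib1_WT. Cutting lists to the same length, as done below, does not equalize depth, and its part in the counts was not tested. If each step is taken as a sequence tag, which the sources do not state, a called peak at the apolipoprotein windows held 11 to 268 tags. Strength is given below as the percentile of a peak's signal inside its own list, where 100 is the strongest peak. Lists differ in length, so a percentile places a site within its library and a gap between libraries is not by itself a change in binding. Peak lists carry no transcript levels, so neither the tissue label nor the loss of Trib1 can be checked from them.

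Apolipoproteins are the protein parts of lipoproteins, the particles that carry fat and cholesterol in blood, and the liver is a main source of most of them. Apob is the structural protein of very-low-density lipoprotein, and Apoa1 that of high-density lipoprotein. The smaller members exchange between particles and set how fast their fat is taken up: Apoc2 is the cofactor of lipoprotein lipase, Apoc3 restrains that enzyme, Apoa5 promotes its action, and Apoe is a ligand of receptors that clear particles. Apoa4 is carried on chylomicrons and high-density lipoprotein. C/EBPα is a basic leucine zipper factor of hepatocytes, and Trib1 is a pseudokinase that recruits the COP1 ubiquitin ligase to it. In the GRCm38 gene table, Apoa1, Apoc3, Apoa4 and Apoa5 follow one another toward higher coordinates between Sik3 and Zpr1. Apoe, Apoc1, Apoc4 and Apoc2 follow one another toward lower coordinates from Tomm40 to Clptm1, and Apob lies between Klhl29 and Ldah. Positions in mm9 were at hand only for Apoa1, Apob and Apoe, and only to about 100 bp, so no site was assigned to another gene. Promoter positions of Apoa4, Apoa5, Apoc2 and Apoc4 were at hand in GRCm38, but sites were not carried over to that build. Sites near those starts are therefore not named as such.

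The promoters of these 3 genes are shown because their starts differ in C/EBPα occupancy: the Apob start lies at a site called in every library, and the starts of Apoa1 and Apoe do not. They are RefSeq sequences of build GRCm38.p6, from 250 bases before to 50 bases after the start, at chr12:7977427-7977726 (plus strand, Apob), chr9:46228380-46228679 (plus strand, Apoa1) and chr7:19699139-19699438 (minus strand, Apoe, the first of 3 listed starts). Capitals mark a match to TTGCNNAA or its reverse complement TTNNGCAA, a pattern that covers C/EBP half-sites.
Apob: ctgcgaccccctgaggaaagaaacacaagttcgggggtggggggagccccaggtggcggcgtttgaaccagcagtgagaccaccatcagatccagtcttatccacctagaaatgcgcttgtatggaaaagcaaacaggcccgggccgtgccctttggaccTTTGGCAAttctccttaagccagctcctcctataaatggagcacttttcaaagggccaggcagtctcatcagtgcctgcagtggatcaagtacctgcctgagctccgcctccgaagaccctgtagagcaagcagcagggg
Apoa1: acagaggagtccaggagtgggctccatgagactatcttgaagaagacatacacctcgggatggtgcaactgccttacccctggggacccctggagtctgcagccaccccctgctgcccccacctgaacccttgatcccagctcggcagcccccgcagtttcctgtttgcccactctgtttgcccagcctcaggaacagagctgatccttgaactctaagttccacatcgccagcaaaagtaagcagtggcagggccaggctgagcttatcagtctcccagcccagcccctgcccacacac
Apoe: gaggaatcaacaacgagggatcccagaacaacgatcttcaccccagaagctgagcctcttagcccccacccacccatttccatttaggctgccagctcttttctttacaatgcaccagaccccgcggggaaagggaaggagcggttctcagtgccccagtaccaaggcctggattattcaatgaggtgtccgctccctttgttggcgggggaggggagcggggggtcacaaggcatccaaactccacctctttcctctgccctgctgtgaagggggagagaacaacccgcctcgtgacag
The Apob promoter held 1 match, TTTGGCAA, beginning 90 bases before the start, and the other 2 held none. Of 32851 mouse promoters of 300 bases, 10.8% held a match on either strand, and 0.183% held the full palindrome TTGCGCAA, which overlaps that pattern and was absent from all 3. Of the 9 genes, 7 had a promoter in the table, and in their first-listed entries Apob was the 1 with a match. A match is a description of letters and was not placed within a peak, since no mm9 sequence was used here.

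Sites at the apolipoprotein windows were dense, and a larger share of them than in the genome was called in every library, though most were not. Sites lay at 18.7 per 100 kb, against 4.29 per 100 kb over the length spanned by peaks on all chromosomes. That length takes in stretches far from any gene, and windows around other genes were not compared. Of the 73 sites, 28 (38.4%) were called in all 8 libraries, against a background of 21.5% of all sites. They numbered 12 of 29 in the Apoa1 window, 7 of 23 in the Apob window and 9 of 21 in the Apoe window. The median of their mean percentile was 84.7, against 71.5 for all sites called in 8 libraries, and 12 of the 28 had a mean of at least 90, against 17.4% of such sites in the genome. At the other end, 13 sites (17.8%) were called in a single library, against 27.1% of all sites. Of these 13, Trib1_WT replicate 1 held 5, AAV_Cebpa replicate 2 held 4, AAV_Null replicate 1 held 2, and Trib1_WT replicate 2 and AAV_Null replicate 2 held 1 each. The Trib1_LSKO libraries and AAV_Cebpa replicate 1 held none. Genome-wide, Trib1_LSKO held 4.22% and 5.42% of single-library sites, Trib1_WT 9.79% and 8.54%, AAV_Cebpa 5.49% and 47.6%, and AAV_Null 7.33% and 11.6%.

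**Figure D1:**
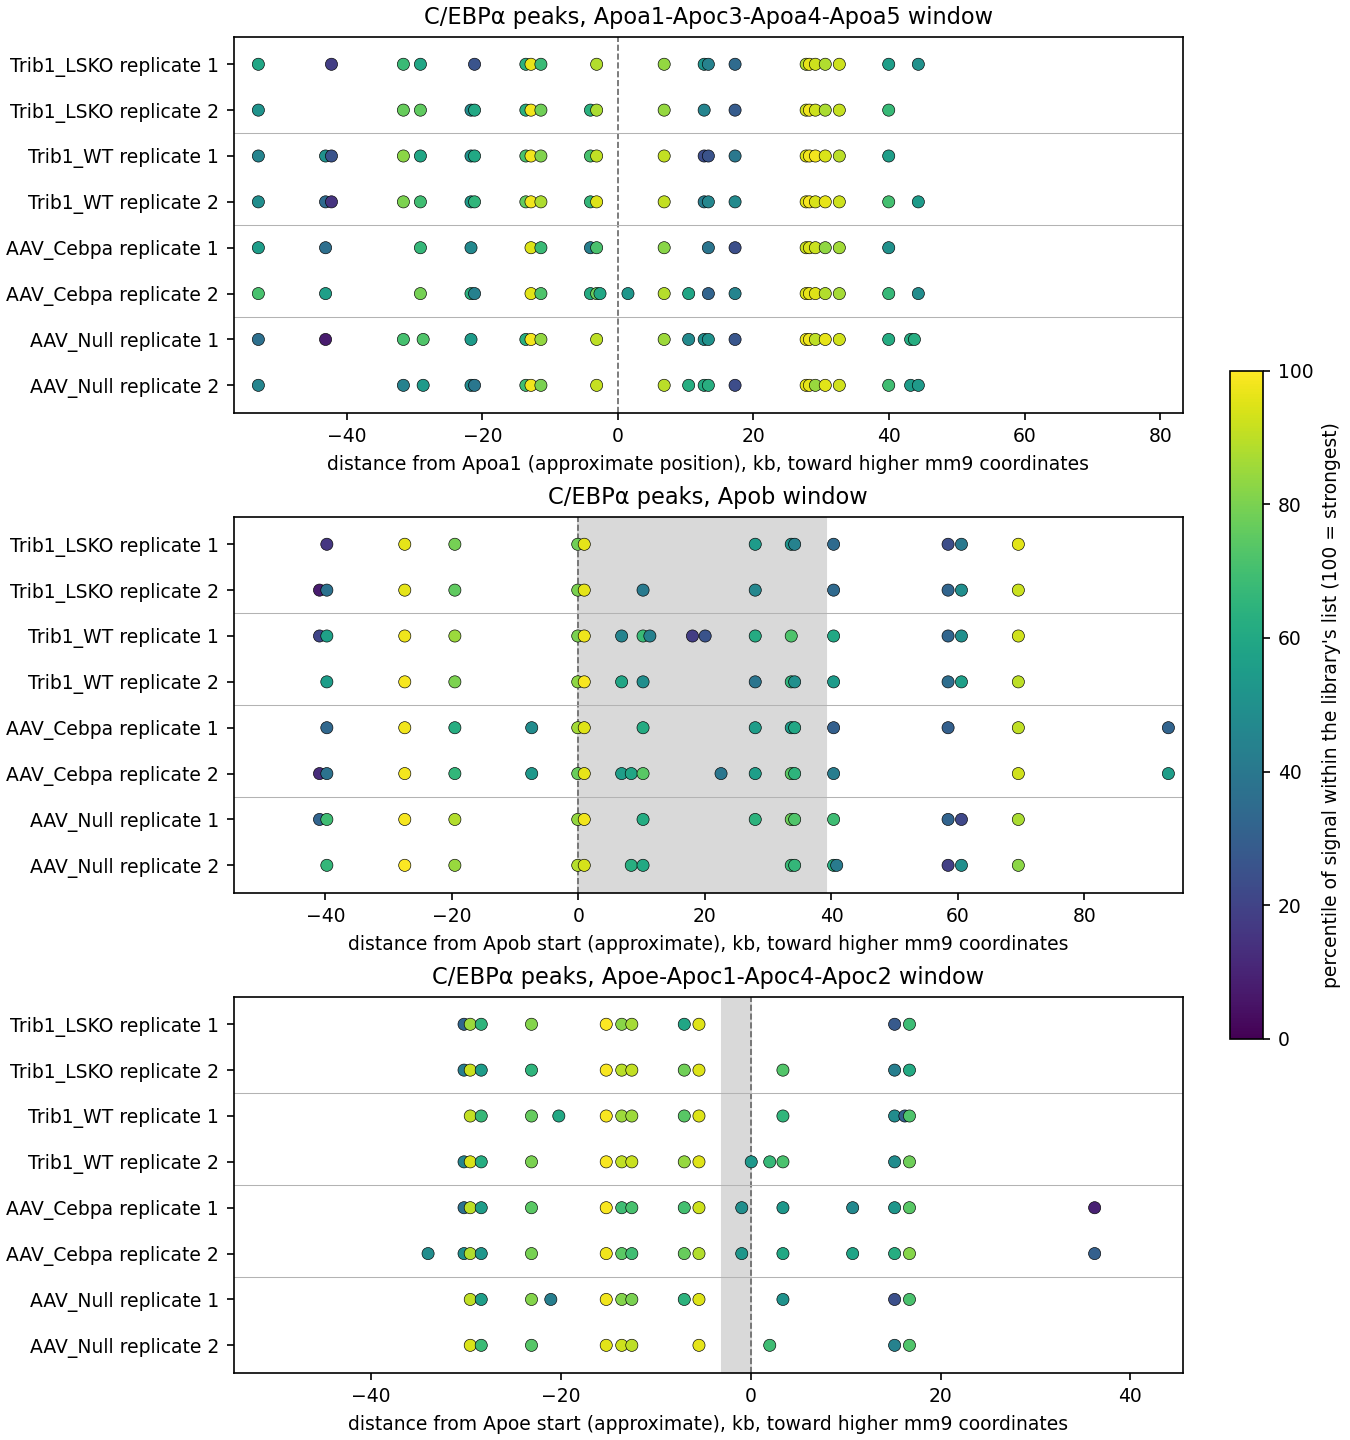
C/EBPα peaks of the 8 libraries in the 3 windows. The x axis is the distance in kb from the approximate gene start toward higher mm9 coordinates, each row is 1 library, each point is a called peak coloured by its percentile within the library's list, and grey bands are the approximate bounds of Apob and Apoe. Dashed lines mark the gene starts. The run of 5 neighbouring strong sites 27.8 to 32.7 kb from Apoa1 is called in every row.

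The Apoa1 window had its strongest binding away from Apoa1 itself. The nearest site to Apoa1, 1.48 kb toward higher coordinates, was called in AAV_Cebpa replicate 2 alone, at percentile 52.5. The nearest site called in all 8 libraries lay 3.14 kb to the other side, on the flank of Sik3, with a mean percentile of 86.3 ± 8.0 (SD, n = 8). The strongest site of the window, chromosome 9, 46023776 to 46023984, lay farther out on that flank, 12.8 kb from Apoa1. Its percentile was 96.2 and 98.0 in Trib1_LSKO, 98.0 and 97.9 in Trib1_WT, 94.7 and 95.6 in AAV_Cebpa, and 98.3 and 97.8 in AAV_Null. It was thus among the strongest peaks of every list, with both AAV_Cebpa values below the other 6.

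On the side of Apoa1 where Apoc3, Apoa4 and Apoa5 follow, 5 sites with a mean percentile of at least 90 lay within 4894.5 bp of each other, from 27.8 to 32.7 kb. All 5 were called in all 8 libraries, and their percentiles ran from 83.3 to 98.5 over the 40 peaks. Among all sites of this strength called in 8 libraries, no other 4 or 5 lay within 5 kb of each other; these limits were chosen after the values were seen. The strongest of the 5, chromosome 9, 46064831 to 46065057, had percentiles of 96.2 and 97.8 in Trib1_LSKO, 97.8 and 98.5 in Trib1_WT, 94.1 and 96.1 in AAV_Cebpa, and 97.5 and 96.3 in AAV_Null. Its neighbour 477.5 bp away, chromosome 9, 46064352 to 46064594, had 88.3 and 92.0 in Trib1_LSKO, 94.9 and 95.5 in Trib1_WT, 91.6 and 94.2 in AAV_Cebpa, and 96.8 and 96.3 in AAV_Null. The treated libraries lay below their controls at this second site in both experiments. The third, chromosome 9, 46065723 to 46065932, had 92.6 and 92.2 in Trib1_LSKO, 98.2 and 93.9 in Trib1_WT, 92.2 and 94.7 in AAV_Cebpa, and 90.2 and 84.4 in AAV_Null. It was below the controls in Trib1_LSKO. It was above them in AAV_Cebpa in the full lists, but with every list cut to the same length the values overlapped, at 89.9 and 90.8 in AAV_Cebpa and 90.2 and 83.5 in AAV_Null. Sites of this window called in all 8 libraries reached down to a mean percentile of 33.8, at 17.3 kb from Apoa1.

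At Apob, a pair of sites marked the start of the gene in every library. The first, chromosome 12, 7984292 to 7984524, had its midpoint 0.10 kb before the approximate start. Its percentile was 78.4 and 79.9 in Trib1_LSKO, 79.99 and 83.0 in Trib1_WT, 86.3 and 77.0 in AAV_Cebpa, and 83.7 and 88.8 in AAV_Null. The second, chromosome 12, 7985303 to 7985558, lay 0.93 kb inside the gene and was stronger, with 95.9 and 95.9 in Trib1_LSKO, 97.3 and 98.9 in Trib1_WT, 94.99 and 96.4 in AAV_Cebpa, and 97.7 and 93.5 in AAV_Null. At both sites the AAV_Cebpa and AAV_Null values overlapped in the full lists; in lists of equal length the first was lower in AAV_Cebpa, at 82.4 and 60.1 against 83.7 and 88.1 in AAV_Null. At both, in full and equal lists, the Trib1_LSKO values lay below those of Trib1_WT, with differences of means in the full lists of -2.38 and -2.23 percentile points. The second site was the only one of 11 sites between the approximate bounds of Apob, 7984500 to 8023700, that all 8 libraries shared. The other 10 were called in 1 to 7 libraries. Peaks between these bounds numbered 4 and 3 in Trib1_LSKO, 8 and 6 in Trib1_WT, 5 and 8 in AAV_Cebpa, and 5 and 5 in AAV_Null. Those of Trib1_WT replicate 1 include peaks at percentiles 43.6, 17.8 and 25.8 that no other library held. AAV_Cebpa replicate 2 likewise had a peak of its own, at 39.4. The full lists were also shorter in Trib1_LSKO, at 50075 and 53072 peaks against 53327 and 54691 in Trib1_WT.

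Strong sites also flanked Apob. The strongest of the window, chromosome 12, 7956932 to 7957180, lay 27.4 kb before the start. It had percentiles of 96.0 and 95.8 in Trib1_LSKO, 97.4 and 98.8 in Trib1_WT, 97.7 and 98.1 in AAV_Cebpa, and 98.7 and 99.3 in AAV_Null, and both treated groups lay below their controls. In mean percentile, 861 of the 24318 sites called in all 8 libraries ranked above it. Past the gene, chromosome 12, 8053931 to 8054159 lay 69.5 kb from the start, with 95.3 and 91.9 in Trib1_LSKO, 92.6 and 89.97 in Trib1_WT, 90.3 and 92.7 in AAV_Cebpa, and 87.4 and 82.8 in AAV_Null. The Trib1 groups overlapped. The AAV_Cebpa values lay above those of AAV_Null in the full lists and overlapped them in lists of equal length, at 87.5 and 87.3 in AAV_Cebpa and 87.4 and 81.8 in AAV_Null.

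In the Apoe window, strong binding lay on the side of Apoe that holds Apoc1, Apoc4 and Apoc2. Of the 9 sites called in all 8 libraries, 7 were on that side. The strongest site of all 3 windows was chromosome 7, 20269165 to 20269379, 15.2 kb downstream of the Apoe start. Its percentile was 99.4 and 99.2 in Trib1_LSKO, 98.99 and 99.03 in Trib1_WT, 98.9 and 97.9 in AAV_Cebpa, and 97.8 and 95.4 in AAV_Null, and its signal corresponded to 169 to 268 tags. Trib1_LSKO lay above Trib1_WT there by a mean of 0.28 percentile points. AAV_Cebpa lay above AAV_Null by 1.81 points in the full lists, but the values overlapped in lists of equal length, at 98.6 and 96.4 in AAV_Cebpa and 97.8 and 95.1 in AAV_Null. In mean percentile, 611 of the 24318 sites called in all 8 libraries ranked above it.

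The next strong site toward Apoe, chromosome 7, 20278927 to 20279145, lay 5.46 kb downstream of the start. It had 95.2 and 94.7 in Trib1_LSKO, 94.9 and 94.98 in Trib1_WT, 92.5 and 88.5 in AAV_Cebpa, and 94.9 and 95.8 in AAV_Null. At chromosome 7, 20254833 to 20255047, 29.6 kb downstream, the values were 85.1 and 92.0 in Trib1_LSKO, 90.8 and 93.9 in Trib1_WT, 89.9 and 88.0 in AAV_Cebpa, and 90.4 and 94.4 in AAV_Null. The Trib1 groups overlapped at both, and AAV_Cebpa lay below AAV_Null at both. A wider gap was seen at chromosome 7, 20270785 to 20271022, with 82.3 and 89.3 in Trib1_LSKO, 85.5 and 90.3 in Trib1_WT, 69.1 and 74.5 in AAV_Cebpa, and 81.3 and 92.3 in AAV_Null. Apoe itself was sparsely bound: the site nearest to its start, 0.05 kb away, was called in Trib1_WT replicate 2 alone, at percentile 53.2.

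The first comparison asked how occupancy at these genes stood after Cre was given to floxed Trib1 mice. Fewer peaks were called in Trib1_LSKO, 43 and 43, than in Trib1_WT, 52 and 51, a difference of -8.5 peaks. The exact two-sided permutation p was 0.333, the smallest that 2 against 2 libraries allow. Each window went the same way, with 20 and 19 peaks in Trib1_LSKO against 22 and 23 in Trib1_WT at Apoa1, 12 and 12 against 17 and 14 at Apob, and 11 and 12 against 13 and 14 at Apoe. The groups did not overlap in any of the 3. The difference was between -9.0 and -8.0 with any 1 of the 4 libraries left out, and -8.5 with lists cut to equal length. The full lists were shorter in Trib1_LSKO too, and the share of the list that fell in the windows was 0.0859% and 0.081% in Trib1_LSKO against 0.0975% and 0.0933% in Trib1_WT.

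**Figure D2:**
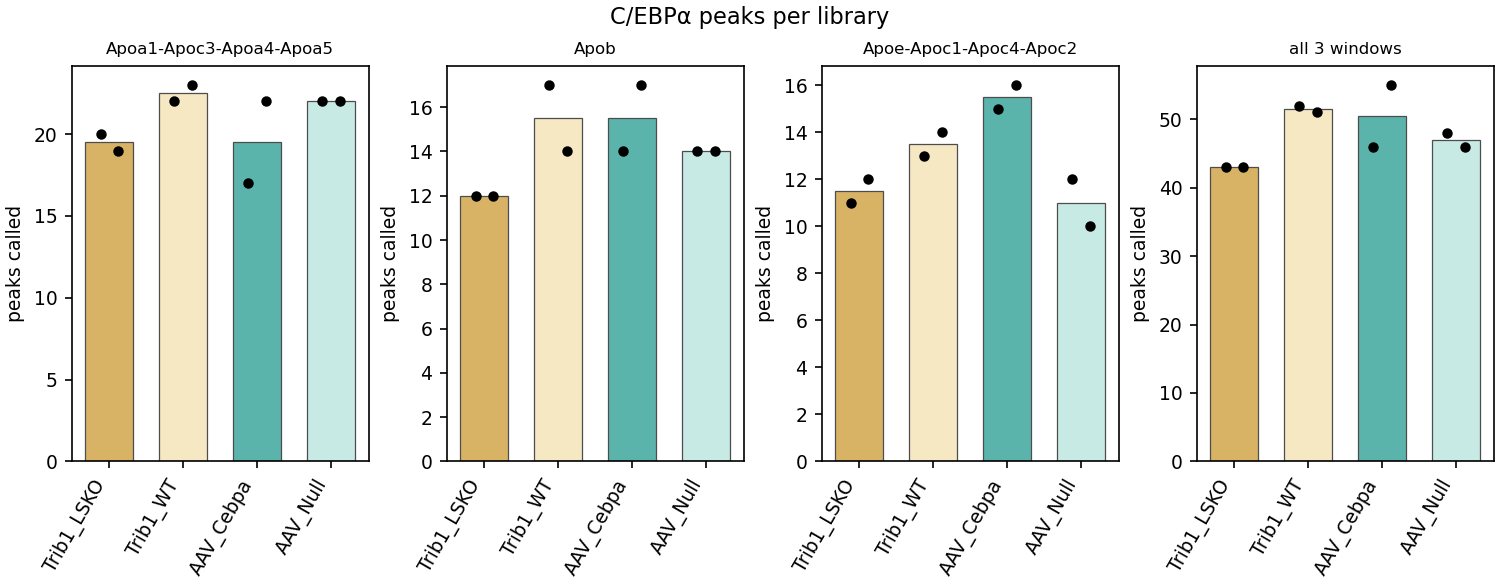
Number of C/EBPα peaks called in each window and in all 3 together. Points are libraries, bars are means of the 2 libraries of a group, and the y axis starts at 0. In all 3 windows together both Trib1_LSKO libraries sit at 43, below Trib1_WT at 52 and 51, while AAV_Cebpa at 46 and 55 overlaps AAV_Null at 48 and 46.

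Few sites were won or lost outright in this comparison. Gained means a peak in each Trib1_LSKO list and in no Trib1_WT list, and lost means the reverse. Of the 57 sites called in at least 1 of the 4 libraries, 0 were gained in Trib1_LSKO, against 4.74% of such sites in the genome, and 2 (3.51%) were lost, against 4.86%. In lists of equal length the counts were again 0 and 2 of 57, against 5.76% gained and 4.6% lost in the genome. The lost site in the Apoa1 window, chromosome 9, 45993450 to 45993686, lay 43.1 kb from Apoa1 on the Sik3 flank. It was absent from both Trib1_LSKO lists and stood at percentile 50.9 and 34.4 in Trib1_WT, 36.0 and 56.2 in AAV_Cebpa, and 7.5 in AAV_Null replicate 1 alone. The other was inside Apob, 6.84 kb from the start at chromosome 12, 7991236 to 7991461, also absent from Trib1_LSKO, at 45.2 and 58.9 in Trib1_WT and at 55.6 in AAV_Cebpa replicate 2. Neither had a strong peak in any list. With 1 library left out, calling is looser in its group: without Trib1_LSKO replicate 1 or 2, 5 or 6 sites were lost and 0 gained, without Trib1_WT replicate 1, 4 were lost and 0 gained, and without Trib1_WT replicate 2, 7 were lost and 1 gained.

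More of the sites kept in both groups stood lower than higher in the Trib1_LSKO lists. Of 37 sites called in all 4 libraries, 20 (54.1%) had both Trib1_LSKO percentiles below both Trib1_WT percentiles, against a background of 36.5%, and 3 (8.11%) had both above, against 20.2%. Their median difference was -4.54 percentile points, against -2.45 for all sites called in these 4 libraries. Among the 17 with a mean percentile of at least 80, 8 (47.1%) were lower in Trib1_LSKO, against 36.8% of equally strong sites in the genome. Of the same 17, 1 (5.88%) was higher, against 17%. The lower ones were 5 of 8 such sites at Apoa1, 3 of 4 at Apob and 0 of 5 at Apoe. With lists of equal length, 17 of 37 were lower, against 32.5%, and 3 were higher, against 22.3%. By window, 10 of 17 were lower at Apoa1, 8 of 10 at Apob and 2 of 10 at Apoe; the difference between windows was not tested. The widest gap was at chromosome 12, 7944627 to 7944861, 39.8 kb before Apob, with 15.7 and 37.5 in Trib1_LSKO against 56.9 and 55.4 in Trib1_WT. Of the 3 sites above their controls, the widest gap was at 12.7 kb from Apoa1, with 51.6 and 45.0 in Trib1_LSKO against 23.2 and 41.7 in Trib1_WT. The counts above rest on 2 libraries a group: with 1 library left out, lower sites numbered 22 to 28 and higher sites 5 without Trib1_WT replicate 1 and 6 without any other.

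The second comparison asked how occupancy stood after extra C/EBPα was supplied. AAV_Cebpa held 46 and 55 peaks in the windows and AAV_Null 48 and 46, a difference of 3.5 peaks (exact two-sided permutation p = 1.0, with 0.333 the smallest possible). The groups overlapped, and the difference was 0.0 with lists cut to equal length and -1.0 without AAV_Cebpa replicate 2, the longest list; without AAV_Cebpa replicate 1 it was 8.0. At Apoa1 there were 17 and 22 peaks in AAV_Cebpa against 22 and 22 in AAV_Null, at Apob 14 and 17 against 14 and 14, and at Apoe 15 and 16 against 12 and 10. Of the windows, only that of Apoe had no overlap between the groups (exact two-sided permutation p = 0.333). The full lists did not overlap either, with 59564 and 80394 peaks in AAV_Cebpa against 46348 and 49052 in AAV_Null. The windows held 0.0772% and 0.0684% of all peaks in AAV_Cebpa and 0.104% and 0.0938% in AAV_Null.

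Of the 66 sites called in at least 1 of these 4 libraries, 8 (12.1%) were gained in AAV_Cebpa, against 22.1% in the genome, and 6 (9.09%) were lost, against 6.03%. In lists of equal length, 7 of 64 were gained, against 17.1%, and 6 of 64 were lost, against 13%, so the lost sites then lay under the background rather than over it. Gained sites numbered 2 of 28 at Apoa1, 2 of 20 at Apob and 4 of 18 at Apoe, and lost sites 5, 1 and 0. The gained share at Apoe, 22.2%, was about that of the genome, 22.1%. Without AAV_Cebpa replicate 1 the windows had 13 gained sites, and without AAV_Null replicate 1 they had 12.

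In the Apoe window, 3 of the 4 gained sites were called in no other group. One lay inside Apoe at chromosome 7, 20283443 to 20283656, 0.95 kb from the start, at percentile 49.4 and 52.5 in AAV_Cebpa. Another, chromosome 7, 20295129 to 20295345, lay 10.7 kb before the start, at 47.2 and 58.4, and the third, chromosome 7, 20320623 to 20320850, lay 36.2 kb before it, at 9.1 and 30.1. All 3 were of middle or low rank in the AAV_Cebpa lists. In lists of equal length the third had no peak, and the other 2 stood lower, at 34.9 and 17.7 inside Apoe and at 32.2 and 27.9 before it. The fourth, chromosome 7, 20254182 to 20254414, 30.2 kb downstream of the start, was absent from AAV_Null alone among the groups, with 32.5 and 42.2 in Trib1_LSKO, 45.5 in Trib1_WT replicate 2, and 37.4 and 49.2 in AAV_Cebpa.

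At Apob, both gained sites were found in AAV_Cebpa only. They were chromosome 12, 7977024 to 7977227, 7.38 kb before the start, at percentile 48.3 and 53.2, and chromosome 12, 8077659 to 8077863, 93.3 kb from the start, at 31.9 and 55.6. The lost site, chromosome 12, 8044936 to 8045167, 60.5 kb from the start, was called in all other libraries, with 40.4 and 49.0 in Trib1_LSKO, 49.6 and 56.1 in Trib1_WT, and 21.6 and 49.4 in AAV_Null.

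At Apoa1, gained and lost sites lay side by side. A site 29.1 kb from Apoa1 on the Sik3 flank, chromosome 9, 46007447 to 46007687, was gained in AAV_Cebpa, at percentile 66.5 and 79.0. Both Trib1 groups had it as well, at 59.2 and 75.8 in Trib1_LSKO and 59.0 and 69.3 in Trib1_WT. The AAV_Null libraries had a peak 405.5 bp away instead, at chromosome 9, 46007870 to 46008070, at 72.4 and 54.0, which counts as lost and was called in no other library. With windows of 400 bp the pair joined into a single site called in all 8 libraries, neither gained nor lost. The 3 windows then had 7 gained sites, 5 lost sites and 29 sites called in all 8 libraries. Whether these are separate binding sites was not tested further. The other gained site, chromosome 9, 46032501 to 46032766, 4.05 kb from Apoa1, stood at 42.5 and 61.0 in AAV_Cebpa and was also called in Trib1_LSKO replicate 2 at 63.4 and in Trib1_WT at 70.7 and 66.3.

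The other 4 lost sites of the Apoa1 window included 3 that all Trib1 libraries held. Chromosome 9, 46004922 to 46005172, 31.6 kb out on the Sik3 flank, was absent from AAV_Cebpa and stood at 67.8 and 76.8 in Trib1_LSKO, 82.6 and 80.2 in Trib1_WT, and 70.4 and 44.2 in AAV_Null. Chromosome 9, 46022994 to 46023259, 760.0 bp from the strongest site of the window, was absent from AAV_Cebpa and stood at 63.3 and 63.4 in Trib1_LSKO, 71.4 and 75.8 in Trib1_WT, and 63.3 and 69.4 in AAV_Null. These 2 had ranks well above the middle of most lists that held them. Chromosome 9, 46049317 to 46049540, 12.7 kb from Apoa1, stood at 51.6 and 45.0 in Trib1_LSKO, 23.2 and 41.7 in Trib1_WT, and 49.0 and 61.2 in AAV_Null. The last, chromosome 9, 46079771 to 46079993, 43.2 kb from Apoa1, was called in AAV_Null only, at 61.4 and 55.0.

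More of the sites kept by both groups stood lower than higher in the AAV_Cebpa lists. Of 33 sites called in all 4 libraries, 18 (54.5%) had both AAV_Cebpa percentiles below both AAV_Null percentiles, against 27.8% in the genome, and 6 (18.2%) had both above, against 39.1%. The median difference was -3.62 percentile points, against 1.89 for all sites called in these 4 libraries. Since percentiles depend on list length, the same was read with every list cut to 46348 peaks. With this, 24 of 30 sites (80%) were lower in AAV_Cebpa, against 48.8% in the genome, and 1 was higher, against 25.6%. More genome sites were thus higher than lower in the full lists, and more were lower than higher in lists of equal length. Among the 15 sites with a mean percentile of at least 80 in the full lists, 9 (60%) were lower and 3 (20.0%) higher, against 34.8% and 35.4%. By window, 8 of 14 were lower at Apoa1, 5 of 10 at Apob and 5 of 9 at Apoe. Leaving out 1 library gave 19 to 22 lower sites, and 10 higher sites without AAV_Null replicate 1.

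Examples fell in each window. At Apob, chromosome 12, 8024611 to 8024971, about at the end of the gene, stood at 30.4 and 41.8 in AAV_Cebpa against 69.0 and 62.7 in AAV_Null, and the site 39.8 kb before the start stood at 33.3 and 37.6 in AAV_Cebpa against 69.0 and 66.3 in AAV_Null. Neither kept its AAV_Cebpa replicate 2 peak in lists of equal length. At Apoa1, the site 3.14 kb away stood at 71.3 and 77.0 in AAV_Cebpa against 89.98 and 91.2 in AAV_Null. In the Apoe window, chromosome 7, 20271858 to 20272242 stood at 70.8 and 69.3 in AAV_Cebpa against 79.7 and 90.1 in AAV_Null. The 1 site that was higher in AAV_Cebpa in full and equal lists lay 53.0 kb from Apoa1 at chromosome 9, 45983548 to 45983764, with 55.3 and 70.8 in AAV_Cebpa against 36.4 and 45.6 in AAV_Null in the full lists, and 42.5 and 49.3 against 36.4 and 42.4 in lists of equal length.

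**Figure D3:**
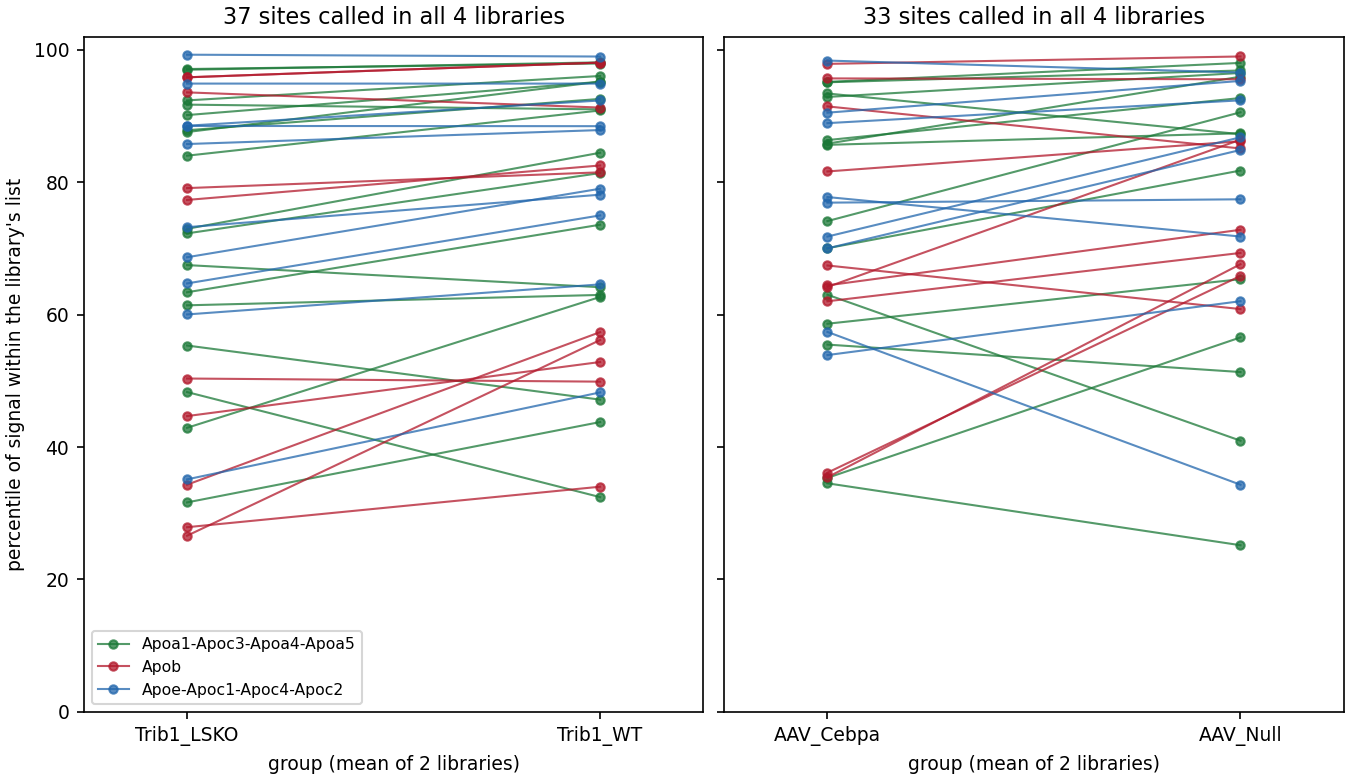
Mean percentile of the sites called in all 4 libraries of each comparison (37 on the left panel, 33 on the right). The y axis is the percentile of signal within the library's list, each line joins 1 site in the treated group on the left and its control on the right, and colours mark the 3 windows. More lines climb toward the control than fall, and 20 sites were lower in both Trib1_LSKO lists and 18 in both AAV_Cebpa lists.

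The experiments had separate control libraries, and the 28 sites called in all 8 lists could be read in both. Of these, 15 were lower in both Trib1_LSKO lists and 16 in both AAV_Cebpa lists than in their controls, and 8 were in both sets, 28.6% of the 28 against 15.5% of such sites in the genome. The share in both sets depends on the single shares, 53.6% in Trib1_LSKO and 57.1% in AAV_Cebpa, and was not tested apart from them. Those 8 lay at Apoa1 (4) and Apob (4), and none in the Apoe window. A further 3 (10.7%, against 7.19%) were lower in Trib1_LSKO and higher in AAV_Cebpa, 2 were higher in both (7.14%, against 14.8%) and 0 were higher in Trib1_LSKO and lower in AAV_Cebpa, against 1.37%. Of the 2 sites higher in both, 1 was the strongest site of the Apoe window and the other lay 53.0 kb from Apoa1, at 59.2 and 51.5 in Trib1_LSKO, 45.2 and 49.1 in Trib1_WT, 55.3 and 70.8 in AAV_Cebpa, and 36.4 and 45.6 in AAV_Null. In lists of equal length, 9 of 26 sites were lower in both, against 22.5%, and 1 was higher in both, the site 53.0 kb from Apoa1, against 13.3%. None was lower in Trib1_LSKO and higher in AAV_Cebpa, against 2.59%, or the reverse, against 3.91%. Sites were not tested one by one.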

How the data were processed

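C/EBPα ChIP-seq peak lists of 8 mouse liver libraries (4 groups of 2) were used, 1 list per library. The submitters' processing notes name Bowtie, HOMER and build mm9; versions, input, threshold and duplicate handling: not given in the sources used here. Each deposited line holds a 200 bp peak and 1 signal value of the authors; how they scaled it is not stated. The signal served only to rank peaks inside its own list. Signal values were whole multiples of 1 step per library, within 0.051, for at least 99.97% of peaks, and tags are signal divided by step.

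Windows of 200 bp around peak midpoints that shared 1 bp or more formed a site (Python 3.11.15, pandas 2.3.3). Joining and calling were tested on simulated data whose sites lay too far apart to merge, so close neighbours were not covered. Peak numbers were compared by exact permutation of libraries; site counts were set beside the same share over all sites. Alternatives were windows of 100 and 400 bp, the strongest 50% of each list, a signal of at least 10, lists of equal length, a replicate block and leaving out each library. Named sites are the 4 strongest per window called in all 8 libraries, every gained or lost site, those nearest the gene starts, and those of all 8 libraries inside Apob; sites in the later examples and exceptions were picked after their values were seen. The members, lists and rules were chosen with earlier results of these data known.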

Additional observations from a re-analysis of the deposited data

How the results depend on the processing

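Of 134 values recomputed under alternatives, 29 moved (counts by over 1.5 times, site means by over 1 SD across libraries, a difference in peak number to 0) and 1, a difference in peak number, reversed. A site called in 1 library has no SD, and any change in its percentile counted as moved. With the strongest 50% of each list, the windows had 1 gained and 4 lost sites in Trib1_LSKO, 4 gained sites in AAV_Cebpa, and 13 lower and 1 higher common sites in Trib1_LSKO. With lists of equal length, the difference in peak number of AAV_Cebpa was 0.0, 1 common site was higher there, and of the sites called in all 8 libraries 0 were lower in Trib1_LSKO and higher in AAV_Cebpa and 1 was higher in both. Over left-out libraries, that difference ran from -1.0 to 8.0, gained sites from 8 to 13 and higher common sites from 6 to 10 in AAV_Cebpa, and in Trib1_LSKO gained sites ran from 0 to 1, lost sites from 4 to 7 and higher common sites from 5 to 6. Fewer libraries loosen these definitions. Of 29 site means read in lists of equal length, 9 moved, and 1 further site had no peak there. The labels do not say whether same-numbered libraries were prepared together. Deviations of same-numbered libraries correlated at 0.138 in the Trib1 libraries and -0.016 in the other experiment, which cannot settle whether they shared a batch. A replicate block cannot change a difference of means. Its -8.5 and 3.5 peaks, counted among the 134 values, are therefore no check of these differences. Alternatives for the percentile counts, and the equal-length counts over both experiments, were added after seeing the data. With 2 libraries a group the exact permutation test cannot go below 0.333, and the weakest called peak held 7 to 12 tags, by library.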
